A study of Homo sapiens with 8 samples.

Results

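The mitosis genes examined here are 44 genes whose products carry a cell into and through division, among 19775 genes that the deposited arrays measure with a probe set of 1 gene symbol. They were chosen by name. Of several probe sets of a gene, the one with the highest average level was used, with sets ending in _x_at used only where no other existed, which was so for CENPA, PTTG1 and FOXM1. All 44 had a probe set, and all 44 exceeded the median of the array on 2 or more of the 8 arrays and so entered the test, among 13647 genes tested.

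The arrays were made from H9, an established human embryonic stem cell line maintained on mouse fibroblast feeder layers whose division had been blocked. Day 0 was undifferentiated cells that were not sorted. Day 4, day 6 and day 8 were cells taken through blood differentiation in serum-free medium containing BMP4 and sorted for KDR, a receptor of vascular endothelial growth factor, and CD31, an endothelial adhesion molecule. Each of the 4 groups has 2 arrays, numbered replicate 1 and replicate 2 in the titles and called biological, with nothing on whether cultures were separate, so the p-values measure only the spread between these arrays. Day 0 differs from every later group in sorting as well as in day, and the effects of sorting and of time on a difference from day 0 cannot be told apart. An array reads the pooled RNA of its cells, and fewer cells in mitosis and less mitotic RNA per cell cannot be told apart.

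Summed over each list, the markers of endothelium and of undifferentiated cells followed the labels. Summed over 6 genes of endothelium and the sort gate, intensity was 1280 and 1307 units on the day 0 arrays and between 35515 and 51827 on the 6 sorted arrays, while 5 genes of undifferentiated cells summed to 40379 and 39172 at day 0 and to between 3607 and 7103 after sorting. All 5 of these genes were called lower at day 8 than at day 0 in limma, though not evenly. SOX2 had a log2 level of 9.31 on replicate 1 and 6.14 on replicate 2 of day 8. LIN28A stayed between 11.45 and 12.50 on the sorted arrays. The median intensity lay between 88.7 and 93.2 units on the 8 arrays. Within the sorted days the replicates were not alike. Across genes, which are not independent replicates, replicate 1 of day 4 correlated at r = 0.976 with replicate 1 of day 6 and at r = 0.953 with its own partner. Results that rest on these 2 arrays are given below with and without them.

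Entry into mitosis is driven by CDK1 bound to cyclin B. The spindle then attaches to chromosomes at kinetochores, the spindle checkpoint holds the cell until all are attached, and the anaphase promoting complex releases it by marking cyclin B and securin for destruction. Genes of these steps are transcribed together late in the cell cycle, in G2 and M, by complexes of MuvB with MYBL2 and FOXM1, which bind an element called CHR, with NF-Y at nearby CCAAT boxes. The same element is bound by the DREAM complex, which holds these genes down in resting cells.

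A stretch of promoter around the start site is shown for 5 members. They are the 3 that passed the test, SPC25 with the widest difference between replicates, and ESPL1, whose level was not lower at day 8. The part of these elements in the levels on the arrays was not tested. The sequences are from RefSeq on build GRCh38.p14, 5′ to 3′, from 120 bases before the annotated start to 30 after it. Capitals mark a CHR core (TTTGAA or TTCGAA, or its reverse complement) or a CCAAT box (CCAAT, or ATTGG on the other strand). BUB1 lies at chr2:110678034-110678183 (minus strand), BUB1B at chr15:40160949-40161098 (plus strand), NEK2 at chr1:211675592-211675741 (minus strand), SPC25 at chr2:168890401-168890550 (minus strand) and ESPL1 at chr12:53268179-53268328 (plus strand).
BUB1: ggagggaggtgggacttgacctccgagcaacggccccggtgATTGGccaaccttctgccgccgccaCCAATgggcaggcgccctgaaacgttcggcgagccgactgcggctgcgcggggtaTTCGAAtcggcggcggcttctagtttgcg
BUB1B: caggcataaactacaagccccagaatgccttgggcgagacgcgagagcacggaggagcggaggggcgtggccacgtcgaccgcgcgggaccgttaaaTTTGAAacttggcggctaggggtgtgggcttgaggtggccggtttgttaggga
NEK2: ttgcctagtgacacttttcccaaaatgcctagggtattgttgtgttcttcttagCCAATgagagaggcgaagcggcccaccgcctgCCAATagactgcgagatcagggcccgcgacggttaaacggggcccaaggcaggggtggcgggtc
SPC25: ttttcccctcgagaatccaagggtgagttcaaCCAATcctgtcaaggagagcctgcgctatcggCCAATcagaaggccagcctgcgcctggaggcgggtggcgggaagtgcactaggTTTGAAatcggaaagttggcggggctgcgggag
ESPL1: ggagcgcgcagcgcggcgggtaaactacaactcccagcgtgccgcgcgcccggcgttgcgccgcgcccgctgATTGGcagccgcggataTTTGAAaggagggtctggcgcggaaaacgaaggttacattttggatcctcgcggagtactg

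In these windows BUB1 and SPC25 each hold 2 CCAAT boxes and a CHR core at the start site, ESPL1 holds 1 of each close together, BUB1B holds a CHR core alone and NEK2 holds 2 CCAAT boxes without a CHR core. Over the full RefSeq window of 300 bases, 250 before the start and 50 after it, 37 of 44 members had an entry. A CHR core was found in 26 of these 37 (70.3%) and in 16.6% of all 27305 promoters of that length. A CCAAT box was likewise found in 26 (70.3%, against 35.7% of all promoters), 2 or more in 15 (40.5%, against 11.3%), and both elements in 19 (51.4%, against 6.58%). Of 40 promoters of DNA replication and S phase genes, 5% held a CHR core and 52.5% a CCAAT box. The searches covered both strands; a CHR core and a CCAAT box are different words, so that 1 match cannot be both, though neighbouring matches may share bases. A match describes the letters and is not a measured binding site.

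**Figure D1:**
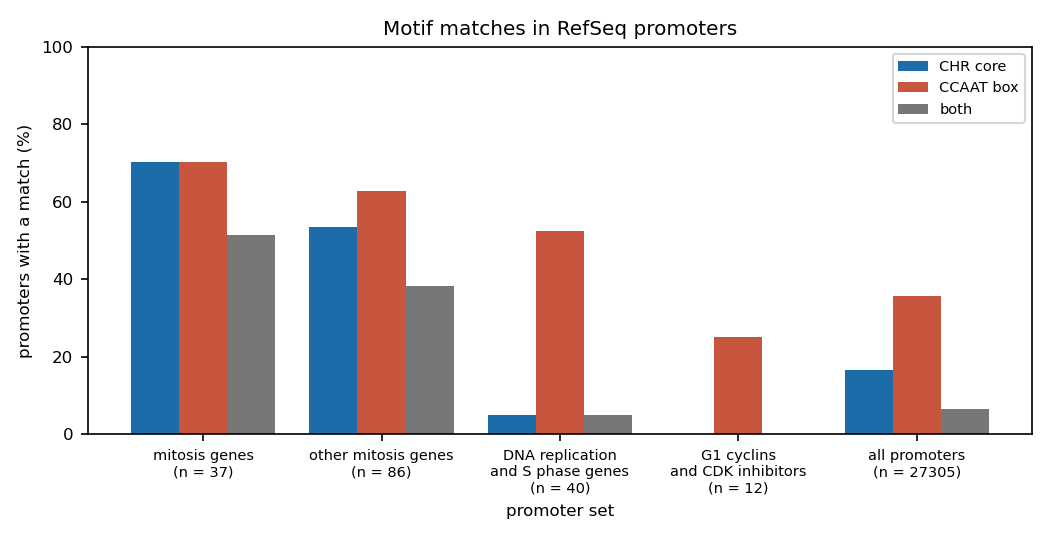
Share of RefSeq promoters (percent, vertical axis) with a CHR core, a CCAAT box or both, for 5 sets of promoters named on the horizontal axis with their number. The CHR core stands at 70.3% in the mitosis genes and at 53.5% in the other mitosis genes, against 5% in the replication genes, 0% in the G1 set and 16.6% in all promoters.

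Levels are given as log2(intensity + 32), in which a step of 1 is about 2-fold for bright genes and more than that for dim ones. Averaged over the 44 genes, the level was 10.84 and 10.82 on the day 0 arrays, 11.04 on replicate 1 and 10.02 on replicate 2 of day 4, 11.06 and 9.59 on those of day 6, and 9.998 and 9.67 on those of day 8. Thus replicate 1 of day 4 and replicate 1 of day 6 lay at or above the undifferentiated cells, while the other 4 sorted arrays lay below them. On replicate 1 of day 4, 30 of 44 members were above their day 0 mean, and on replicate 1 of day 6 it was 28. On replicate 2 of day 4 it was 1, on replicate 2 of day 6 it was 2, and on the day 8 arrays it was 3 and 2.

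**Figure D2:**
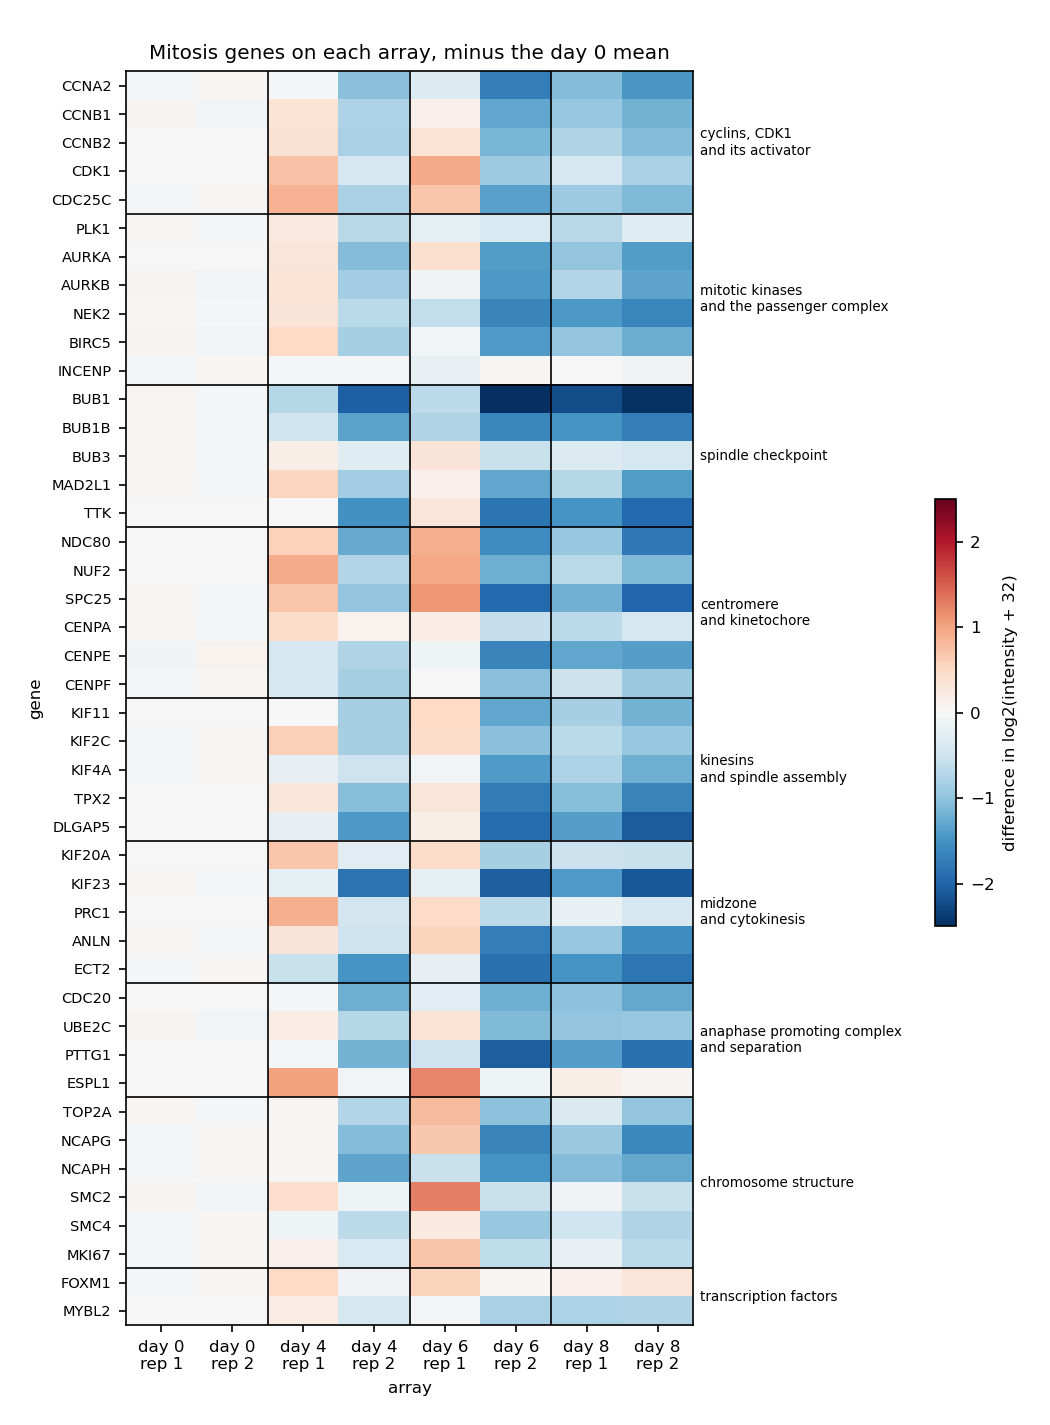
Each row is 1 of the 44 mitosis genes, grouped by role, and each column 1 of the 8 arrays; colour gives the level minus the mean of the 2 day 0 arrays in log2(intensity + 32), red higher and blue lower. Replicate 1 of day 4 and of day 6 are mostly pale to red, with 30 and 28 genes above day 0, while replicate 2 of both days and both day 8 arrays are mostly blue.

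At day 8 the mitosis genes lay below day 0 on both arrays, and 3 of them passed the test. The fit was made with limma over all 8 arrays and adjusted over all genes tested (Benjamini-Hochberg, two-sided, threshold 0.05). From day 0 to day 8, 3 of 44 members fell and 0 rose. The 3 were the checkpoint genes BUB1 and BUB1B and the centrosome kinase gene NEK2. In this comparison 24.5% of all genes tested were called, 14.1% as lower. An unadjusted p under 0.05 was found in 12 of 44 members, against 38.4% of all genes. The median member was lower by 1.02 on the log2 scale, against 0.03 for all genes (median differences of -1.02 and -0.03), and 42 of 44 members had a lower mean. In 41 of 44, both day 8 arrays were below both day 0 arrays, which held for 42.5% of all genes tested, and in 2, ESPL1 and FOXM1, both were above, which held for 35.3%. The share of members called was thus below that of all genes, while the share with both arrays lower was above it. The error of a member's difference was also wider, with a median SE of 0.53 against 0.21 over all genes, with the spread taken from all 4 days. With the arrays of day 0 and day 8 alone, 37 of 44 members fell, where 49.7% of all genes were called.

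BUB1B, a kinase-like protein of the checkpoint complex that restrains the anaphase promoting complex, had levels of 12.74 and 12.65 before differentiation, 12.19 and 11.36 on day 4, 11.94 and 11.07 on day 6 and 11.22 and 10.96 on day 8 (replicate 1, then replicate 2, here and below). All 6 sorted arrays were below both day 0 arrays. The fall from day 0 to day 8 was 3.04-fold, by 1.60 on the log2 scale (SE 0.36, adjusted p = 0.0202). At day 6 the difference from day 0 was -1.19 (SE 0.36) and just missed the threshold (adjusted p = 0.0563), and at day 4 it was -0.92 (SE 0.36, adjusted p = 0.137).

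BUB1, the kinase that marks centromeres for the checkpoint, had 11.16 and 11.09 before differentiation, 10.41 and 9.09 on day 4, 10.47 and 8.58 on day 6 and 8.91 and 8.66 on day 8. Read from its brightest probe set, it had the widest mean difference of the members at day 8, a 5.06-fold fall (by 2.34 on the log2 scale, SE 0.65, adjusted p = 0.0403). Averaged over its 5 probe sets, of which 3 were above the array median on 0 arrays, the fall was by 0.88 (adjusted p = 0.0138) and was not the widest. In the brightest set every sorted array was below both day 0 arrays. NEK2, a kinase that separates the centrosomes, had 10.23 and 10.11 before differentiation, 10.50 and 9.49 on day 4, 9.55 and 8.53 on day 6 and 8.73 and 8.54 on day 8. Its day 4 arrays lay on either side of day 0, and all arrays of day 6 and day 8 lay below it. NEK2 fell 2.90-fold from day 0 to day 8, by 1.54 on the log2 scale (SE 0.42, adjusted p = 0.039). The calls of BUB1B, NEK2 and BUB1 were each lost when either day 0 array or either day 8 array was left out; over the 8 arrays left out in turn, the adjusted p ran from 0.00924 to 0.123 for BUB1B, from 0.0176 to 0.186 for NEK2 and from 0.00924 to 0.183 for BUB1.

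**Figure D3:**
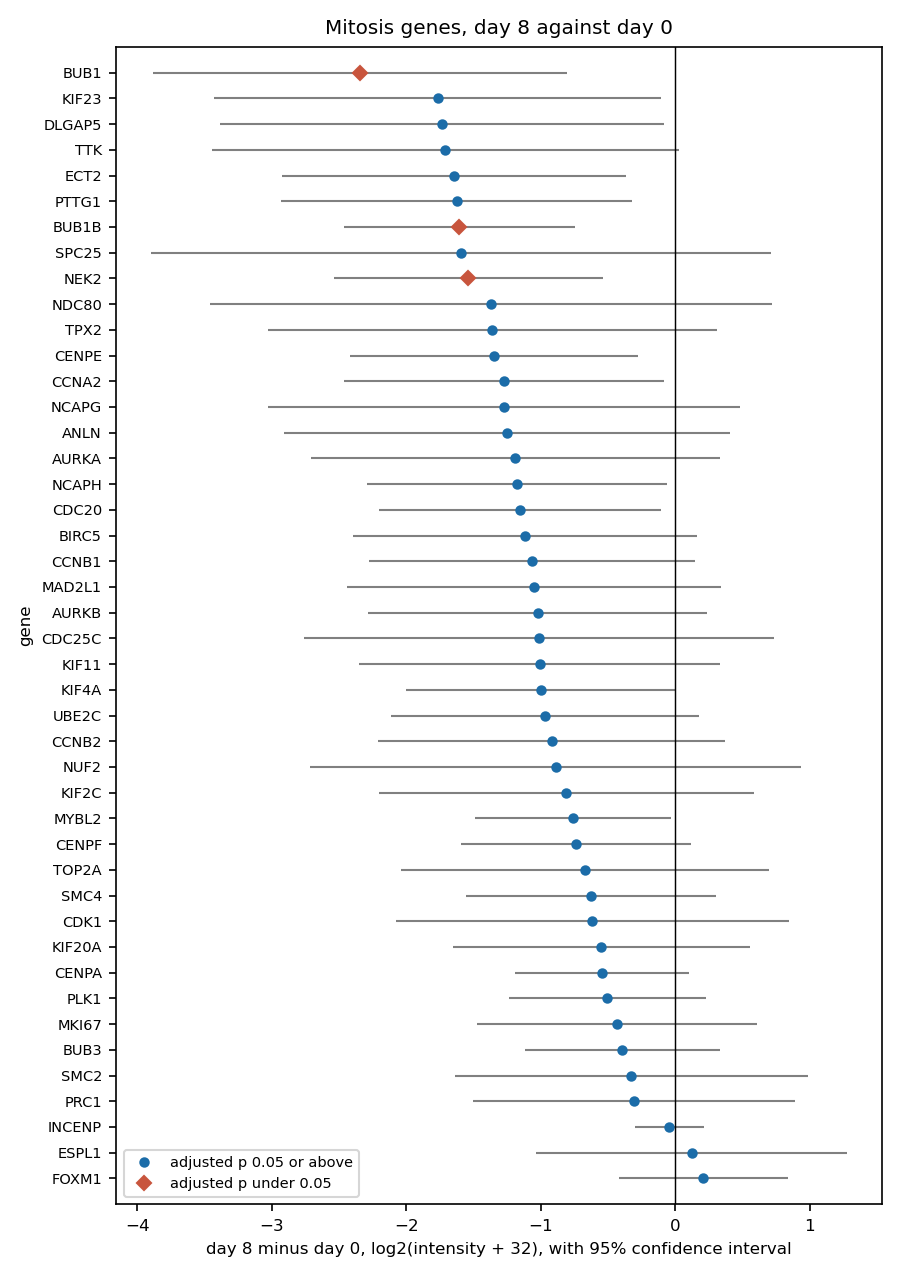
Difference between day 8 and day 0 (horizontal axis, log2(intensity + 32)) for each of the 44 genes, with its 95% confidence interval from the fit over 8 arrays; diamonds mark an adjusted p under 0.05. BUB1, BUB1B and NEK2 carry diamonds, 42 genes lie left of 0, and ESPL1 and FOXM1 lie right of it.

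The other members are given by their roles. CDK1, the kinase that starts mitosis, had 12.70 and 12.69 before differentiation, 13.43 and 12.25 on day 4, 13.64 and 11.79 on day 6 and 12.28 and 11.87 on day 8. Its partner CCNB1, cyclin B1, had 12.59 and 12.45 before differentiation, 12.86 and 11.76 on day 4, 12.66 and 11.23 on day 6 and 11.56 and 11.34 on day 8. For both genes replicate 1 of day 4 and of day 6 exceeded both day 0 arrays, replicate 2 of these days was below them, and the day 8 arrays were the closer pair. Day 8 differed from day 0 by -0.62 (SE 0.62, adjusted p = 0.507) for CDK1 and by -1.07 (SE 0.51, adjusted p = 0.174) for CCNB1.

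CDC25C, the phosphatase that activates CDK1, had 9.17 and 9.22 before differentiation, 10.07 and 8.38 on day 4, 9.90 and 7.84 on day 6 and 8.28 and 8.09 on day 8. Its 2 arrays of day 4 differed by 1.68 and those of day 6 by 2.06, against 0.05 at day 0. Of the 5 genes of cyclins, CDK1 and its activator, 5 had a lower mean at day 8 than at day 0 (median difference -1.01) and 0 passed the test.

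Among 6 mitotic kinases and members of the chromosomal passenger complex, which corrects faulty spindle attachments, all 6 means were lower at day 8 than at day 0 and 1, NEK2, passed. AURKB, the kinase of that complex, differed by -1.02 (SE 0.53, adjusted p = 0.205) and its partner BIRC5 by -1.12 (SE 0.54, adjusted p = 0.177). INCENP, the scaffold of the complex, stayed between 6.81 and 7.04 on all 8 arrays. This probe set lies close to the array median, and INCENP was also the one member whose level on replicate 1 of day 6 was below that on replicate 2.

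The spindle checkpoint held 2 of the 3 genes that passed, BUB1 and BUB1B, among 5 genes with a median difference of -1.60 between day 8 and day 0. TTK, the kinase that recruits the checkpoint to kinetochores, differed by -1.71 (SE 0.73, adjusted p = 0.135), MAD2L1 by -1.05 (SE 0.59, adjusted p = 0.236), and BUB3, the partner of BUB1, by -0.39 (SE 0.31, adjusted p = 0.391).

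Of 6 genes of the centromere and kinetochore, 6 had a lower mean at day 8 (median -1.12) and 0 passed. SPC25, a subunit of the NDC80 complex that grips microtubules, had 9.93 and 9.86 before differentiation, 10.58 and 8.90 on day 4, 10.98 and 7.96 on day 6 and 8.70 and 7.91 on day 8. The 2 arrays of day 6 thus lay 3.02 apart, the widest gap of any member, on either side of day 0. NDC80, the subunit that names the complex, had 10.90 and 10.89 before differentiation, 11.46 and 9.64 on day 4, 11.81 and 9.31 on day 6 and 9.95 and 9.10 on day 8, with a gap of 1.83 at day 4, the widest of that day. For both genes the 95% confidence interval of the difference between day 8 and day 0 included 0 (-3.89 to 0.71 for SPC25 and -3.46 to 0.72 for NDC80).

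CENPA, the histone that marks the centromere, had 8.13 and 8.02 before differentiation, 8.53 and 8.15 on day 4, 8.27 and 7.48 on day 6 and 7.42 and 7.64 on day 8. It was the one member with both day 4 arrays above both day 0 arrays. That difference was 0.27 (SE 0.27, adjusted p = 0.558), and at day 8 the difference was -0.54 (SE 0.27, adjusted p = 0.193). CENPF, a large protein of the outer kinetochore, had 11.21 and 11.26 before differentiation, 10.83 and 10.40 on day 4, 11.25 and 10.19 on day 6 and 10.69 and 10.30 on day 8.

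The 5 genes of kinesins and spindle assembly all had a lower mean at day 8 than at day 0 (median -1.01), and 0 passed. DLGAP5, which stabilises spindle fibres near the chromosomes, had 12.04 on both day 0 arrays, 11.83 and 10.60 on day 4, 12.19 and 10.11 on day 6 and 10.66 and 9.96 on day 8, a difference of -1.73 from day 0 to day 8 (SE 0.70, adjusted p = 0.116). Only replicate 1 of day 6 reached the day 0 level. KIF11, the motor that pushes the spindle poles apart, differed by -1.01 (SE 0.56, adjusted p = 0.238).

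Of 5 genes of the spindle midzone and cytokinesis, 5 had a lower mean at day 8 (median -1.25) and 0 passed. KIF23, a motor of the centralspindlin complex, had 10.74 and 10.66 before differentiation, 10.47 and 8.86 on day 4, 10.46 and 8.64 on day 6 and 9.28 and 8.59 on day 8. ECT2, the exchange factor that activates RhoA at the division plane, had 11.97 and 12.01 before differentiation, 11.43 and 10.52 on day 4, 11.78 and 10.13 on day 6 and 10.51 and 10.18 on day 8. In both genes all 6 sorted arrays were below both day 0 arrays, with differences at day 8 of -1.77 (SE 0.70, adjusted p = 0.112) and -1.65 (SE 0.54, adjusted p = 0.0666). Averaged over all its probe sets, ECT2 differed by -0.75 (adjusted p = 0.0943).

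ANLN, an actin-binding scaffold of the contractile ring, had 11.26 and 11.19 before differentiation, 11.54 and 10.70 on day 4, 11.79 and 9.49 on day 6 and 10.28 and 9.67 on day 8. PRC1, which bundles the microtubules of the midzone, had 11.20 and 11.23 before differentiation, 12.11 and 10.76 on day 4, 11.70 and 10.56 on day 6 and 11.04 and 10.79 on day 8. Both lay above day 0 on replicate 1 of day 4 and of day 6 and below it on the other 4 sorted arrays.

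The 4 genes of the anaphase promoting complex and of chromosome separation did not share 1 direction at day 8. CDC20, the activator of the complex, differed by -1.15 (SE 0.44, adjusted p = 0.103), UBE2C, its ubiquitin-conjugating enzyme, by -0.97 (SE 0.48, adjusted p = 0.191), and PTTG1, the securin that it destroys, by -1.62 (SE 0.55, adjusted p = 0.0733). ESPL1, the separase that securin holds inactive, had 10.30 and 10.27 before differentiation, 11.28 and 10.20 on day 4, 11.50 and 10.17 on day 6 and 10.46 and 10.36 on day 8. Its day 8 arrays were both above both day 0 arrays, by a mean of 0.12 (SE 0.49, adjusted p = 0.885), with a 95% confidence interval of -1.03 to 1.28.

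Among 6 genes of chromosome structure, 6 means were lower at day 8 (median -0.65) and 0 passed. NCAPG, a subunit of condensin, had 11.09 and 11.16 before differentiation, 11.16 and 10.05 on day 4, 11.81 and 9.48 on day 6 and 10.20 and 9.52 on day 8. MKI67, the surfactant of mitotic chromosomes known as the proliferation marker Ki-67, had 9.34 and 9.39 before differentiation, 9.49 and 8.98 on day 4, 10.07 and 8.73 on day 6 and 9.18 and 8.69 on day 8. Its difference at day 8 was -0.43 (SE 0.44, adjusted p = 0.513), and the highest array of this probe set was replicate 1 of day 6. The other probe sets of MKI67 did not share 1 direction, with differences at day 8 of 0.16, -0.20 and -0.29.

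The 2 transcription factors of the list were unlike each other. FOXM1 had 9.12 and 9.17 before differentiation, 9.65 and 9.07 on day 4, 9.71 and 9.18 on day 6 and 9.27 and 9.45 on day 8, so that its day 8 arrays were both above day 0 (0.21, SE 0.26, adjusted p = 0.606). MYBL2 had 10.32 and 10.33 at day 0 and 9.56 and 9.57 at day 8, a difference of -0.76 (SE 0.31, adjusted p = 0.118) between pairs of arrays that each agreed closely. For FOXM1, CENPA and PTTG1, the probe sets can detect related transcripts.

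**Figure D4:**
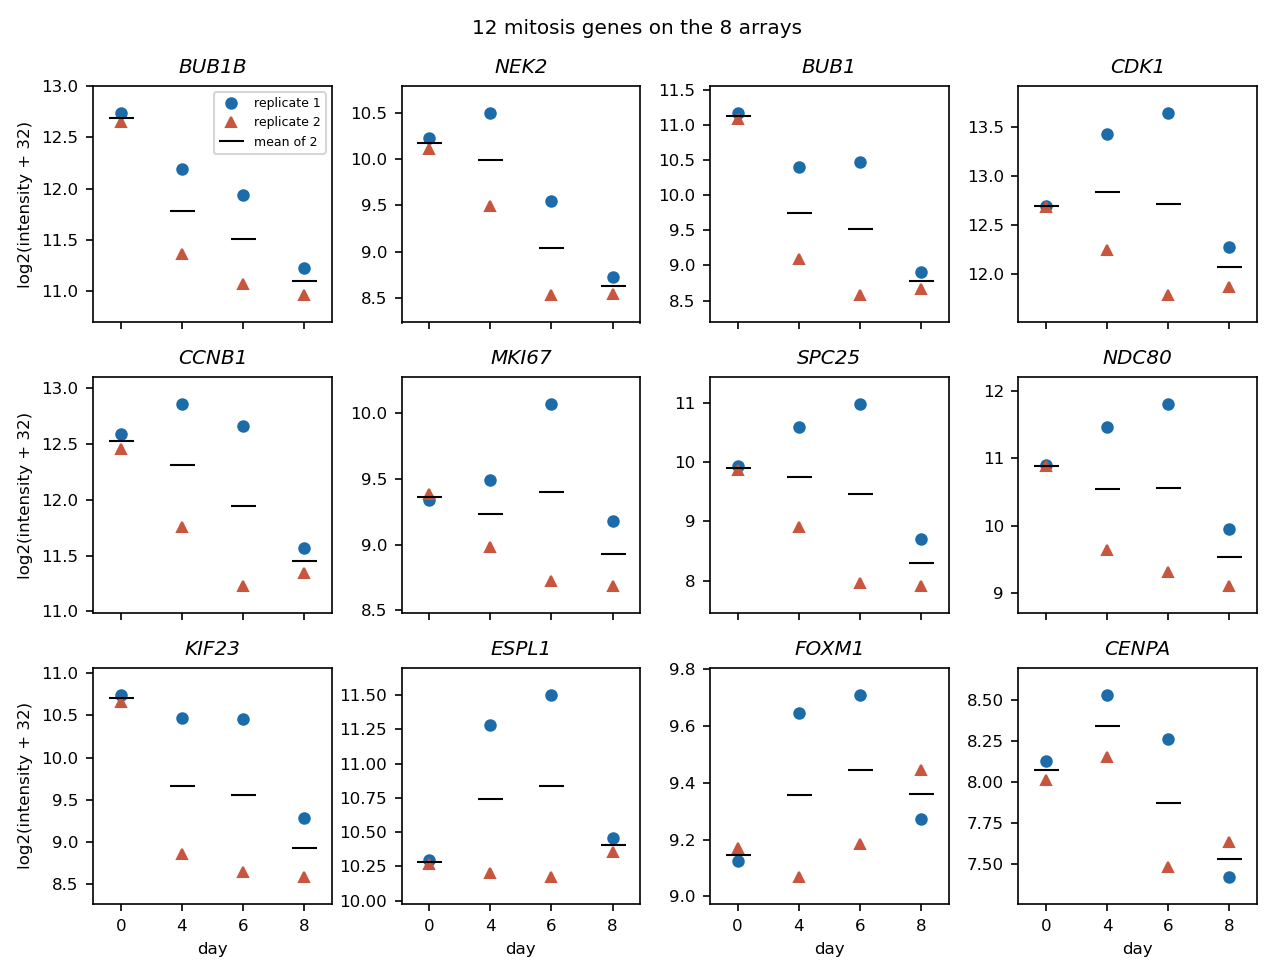
Levels of 12 mitosis genes (vertical axes, log2(intensity + 32), scaled per gene) by day, with circles for replicate 1, triangles for replicate 2 and a bar at the mean of 2 arrays. In CDK1, CCNB1, MKI67, SPC25, NDC80 and ESPL1 the circles of day 4 and day 6 lie above day 0 and the triangles below it, while BUB1B and BUB1 lie below day 0 on every sorted array.

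At day 4 and day 6 no member passed the test against day 0, and the replicates disagreed on the direction. From day 0 to day 4, 0 of 44 members were called by limma (1 at an unadjusted p under 0.05, lowest adjusted p = 0.137), where 18.4% of all genes were called, 8.52% as higher, and 31.4% had an unadjusted p under 0.05. The median difference was -0.25, and 35 of 44 means were lower. In 12 members both day 4 arrays were below both day 0 arrays, and in 1, CENPA, both were above, against 31.8% and 34.3% of all genes. From day 0 to day 6, 0 of 44 were called (3 at an unadjusted p under 0.05, lowest adjusted p = 0.0563), where 23.4% of all genes were called, 9.73% as higher, and 35.7% had an unadjusted p under 0.05. Both arrays of day 6 were below day 0 in 14 members, and above it in 1, FOXM1, against 35.5% and 30.3% of all genes. These 3 comparisons share the day 0 arrays.

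The medians of day 4 and day 6 turned with the array kept. When replicate 1 was left out of both day 4 and day 6, an alternative chosen after the data were seen, the median against day 0 was -0.81 at day 4 and -1.30 at day 6, and 28 and 38 of 44 members fell, with 34.9% and 44.7% of all genes called. Without replicate 2 of both days, likewise chosen afterwards, the medians were 0.21 and 0.27. Then 9 members were called at day 4 (8 rose and 1 fell) and 12 at day 6 (8 rose and 4 fell), with 35.5% and 38.1% of all genes called. Leaving out replicate 1 of day 6 alone gave 12 members that fell at day 6, with 25.5% of all genes called, and leaving out its replicate 2 alone gave 1 that rose, SMC2, with 20.2% called. Under either joint omission 37 of 44 members fell from day 0 to day 8, with 49.7% of all genes called; the spread in those fits comes from the day 0 and day 8 arrays alone, and in all fits with an array left out a lone array was assumed to vary like the other groups.

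Between the sorted days no difference was called. In the step from day 4 to day 6, 0 of 44 members passed in limma and 0 had an unadjusted p under 0.05, with 0% of all genes called and 5.29% at an unadjusted p under 0.05; in 0 members did the arrays of the days not overlap, against 8.4% of all genes with both arrays higher and 16% with both lower. In the step to day 8, again 0 of 44 passed in limma and 0 had an unadjusted p under 0.05 (0% and 2.48% of all genes), and in 0 members did the arrays not overlap, against 12.8% of all genes in each direction. From day 4 to day 8, 0 passed and 2 had an unadjusted p under 0.05 (0% and 6.5% of all genes). The median differences were -0.18, -0.47 and -0.73. Between day 4 and day 8, 19 members had both day 8 arrays below both day 4 arrays, against 23% of all genes. The median depended on single arrays, running from -1.02 to 0.60 for day 6 against day 4, from -1.19 to 0.24 for day 8 against day 6 and from -1.25 to -0.19 for day 8 against day 4. Without replicate 2 of day 4 and of day 6, 39 members were called for day 8 against day 6 and 35 for day 8 against day 4, with 17.6% and 19.2% of all genes called. The limma F test for any difference among the 4 days called 0 members (3 at an unadjusted p under 0.05, 6.82%), against 17% of all genes called and 31.4% at an unadjusted p under 0.05.

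The gap between the 2 arrays of a day was described without a test. At day 0 the median member differed by 0.01 and 0 of 44 lay over 2-fold apart, against 0.00733% of all genes. At day 4 replicate 1 was the higher in 44 of 44, by a median of 1.09 (2.13-fold), and 25 (56.8%) lay over 2-fold apart, against 6.66% of all genes. At day 6 it was the higher in 43 of 44, by a median of 1.43 (2.7-fold), and 35 (79.5%) lay over 2-fold apart, against 9.25% of all genes. At day 8 replicate 1 was the higher in 39 of 44, by a median of 0.33 (1.26-fold), with 0 over 2-fold apart. Over all genes, replicate 1 was the higher in 53.2%, 63.4%, 56.4% and 60.6% at day 0, 4, 6 and 8. The members have 88 probe sets with 1 gene symbol, of which 77 were above the array median on at least 2 arrays; in 70 of these 77, replicate 1 was the higher at both day 4 and day 6, and 72 had a lower mean at day 8 than at day 0.

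**Figure D5:**
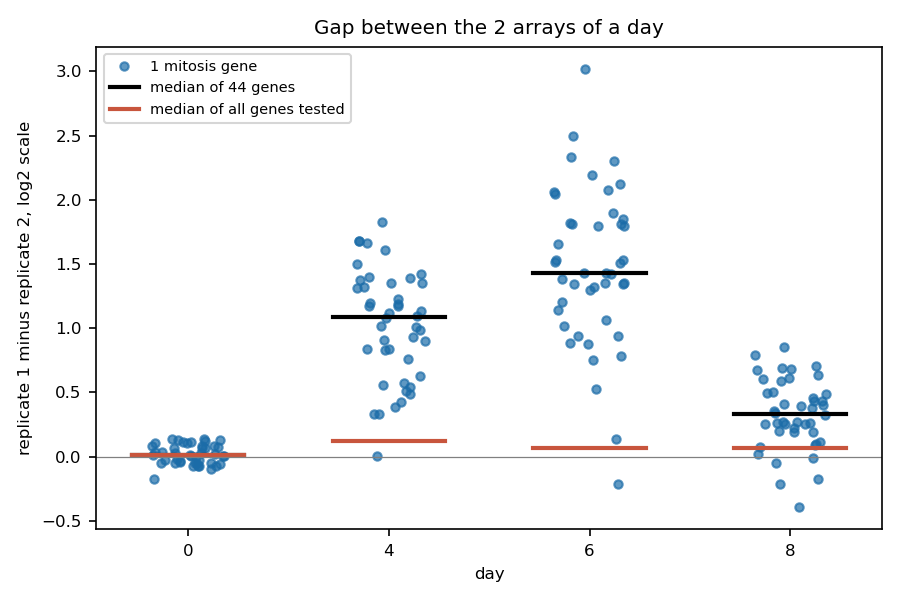
Difference between replicate 1 and replicate 2 of a day (vertical axis, log2 scale) for each of the 44 genes, by day; points are spread sideways only for legibility. The black bars give the median of the 44 genes, 1.09 at day 4 and 1.43 at day 6, and the red bars the median of all genes tested, 0.12 and 0.07.

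Other measured features differed between the same arrays. The 6 genes of yolk sac and liver endoderm summed to 2855 units on replicate 1 and 20652 on replicate 2 of day 4, and to 518 and 6379 on those of day 6. All 4 tested genes of this list were over 2-fold higher on replicate 2 on both days. The liver genes ALB and APOA1 exceeded the array median on too few arrays to be tested. ALB had levels of 7.96 and 6.73 at day 8 and between 5.63 and 5.81 on the other arrays. At day 0 the 6 genes of this list summed to 886 and 917, and at day 8 to 12517 and 9328. The 6 genes of stroma and smooth muscle went the other way, with 18842 and 9805 units at day 4 and 14348 and 6155 at day 6, replicate 1 being the higher in 6 of 6 on both days. They summed to 24494 and 24109 at day 0 and to 10027 and 8681 at day 8. The 5 genes of blood summed to 511 units on replicate 1 and 4754 on replicate 2 of day 6, and to 528 and 567 at day 4. Their sum was 469 and 433 at day 0 and was highest at day 8, with 10222 and 7441. There the embryonic globin gene HBE1 had levels of 13.13 and 12.66. HBE1, ALAS2 and ITGA2B were each highest on the day 8 arrays, while SPN and PTPRC were not. SPN had 6.95 and 6.82 at day 8 and 7.04 on replicate 1 of day 6, and PTPRC had 5.92 and 5.71 against 5.98. All 5 blood genes were above their day 0 mean on replicate 1 of day 8, and 3 were on replicate 2. Of the 6 genes of endothelium and the gate, 5 were lower on replicate 1 than on replicate 2 of day 4 and of day 6. At day 6, 3 of 6 were over 2-fold lower on replicate 1, CD34 (10.08 and 12.09), PECAM1 (12.53 and 13.59) and CDH5 (12.23 and 13.26), with a median gap of -0.62 over the list, and at day 4 the gap was -0.14 with 0 over 2-fold apart. The 4 cardiac genes summed to between 434 and 650 units on each array. At day 6, 1 of them lay over 2-fold apart, MYL7, with 8.13 on replicate 1 and 6.64 on replicate 2. The ratio of the 3′ to the 5′ control probe sets of ACTB, commonly read as a sign of RNA quality, was 8.92 and 10.4 before differentiation, 19.0 and 9.18 on day 4, 31.0 and 16.0 on day 6 and 9.91 and 15.1 on day 8. The same ratio of GAPDH differed less between replicates, at 1.71 and 1.91, 2.22 and 2.15, 3.73 and 3.41, and 2.41 and 3.08 on these days. The part of these features in the levels of the mitosis genes was not tested.

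Genes of neighbouring steps give the setting. Against day 0, 10 of 98 other tested genes of mitosis had fallen and 1 had risen by day 8, 6 had fallen and 1 had risen by day 6, and 2 had fallen and 0 had risen by day 4; their median difference at day 8 was -0.74. Over all genes tested, 14.1%, 13.6% and 9.91% were called lower at day 8, 6 and 4, and 10.4%, 9.73% and 8.52% higher. The shares called of these 98 genes were below that in each direction. In 81 of 98, both day 8 arrays were below both day 0 arrays, and in 9 both were above, against 42.5% and 35.3% of all genes. The mean was lower at day 8 in 88 of 98. The median SE of the difference was 0.39, against 0.21 over all genes. NCAPG2, a subunit of the second condensin, had 10.47 and 10.33 before differentiation and between 8.42 and 9.14 on the 6 sorted arrays, and it passed in all 3 comparisons with day 0 (differences of -1.40, -1.75 and -1.77 by day 4, 6 and 8, adjusted p = 0.00797, 0.00279 and 0.00265). CENPH, a kinetochore subunit, fell by 2.23 from day 0 to day 8 (SE 0.46, adjusted p = 0.0146) and LMNB1, lamin B1 of the nuclear envelope, by 2.02 (SE 0.40, adjusted p = 0.0124). ERCC6L, a helicase of anaphase bridges, fell by 1.71 (SE 0.34, adjusted p = 0.0122), SMC3, a cohesin subunit, by 1.31 (SE 0.32, adjusted p = 0.0276; by 0.79 over all its probe sets), WEE1, the kinase that restrains CDK1, by 0.97 (SE 0.24, adjusted p = 0.0277), and KIFC1, a minus-end kinesin, by 0.74 (SE 0.16, adjusted p = 0.0193). PDS5B, a cohesin regulator, was the one that rose, by 1.23 (SE 0.29, adjusted p = 0.0233), though averaged over its probe sets the difference was 0.22 (adjusted p = 0.279).

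From day 0 to day 8, 14.1% of all genes were called lower and 10.4% higher. Of 17 tested factors of the MuvB, DREAM and E2F complexes and of NF-Y, 3 fell and 0 rose. They were TFDP2, an E2F partner (fell by 1.58, SE 0.29, adjusted p = 0.00871), NFYB, a subunit of the CCAAT-binding NF-Y (fell by 1.49, SE 0.43, adjusted p = 0.0469), and RBBP4, a histone-binding MuvB subunit (fell by 0.61, SE 0.16, adjusted p = 0.0356). The call of NFYB ended without a filter on dim genes (adjusted p = 0.0562), with the arrays centred on their medians (adjusted p = 0.051) and with every probe set on its own (adjusted p = 0.0545), and that of RBBP4 under quantile normalization (adjusted p = 0.0814) and with the mean of all probe sets (adjusted p = 0.0636). Of the genes named from these 2 lists, NCAPG2 alone passed at day 8 with any 1 array left out (adjusted p up to 0.0329), and each of the others lost its call without either day 0 array (adjusted p up to 0.27); at day 4 NCAPG2 lost its call without either day 0 array too (adjusted p up to 0.0773).

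Of 47 DNA replication and S phase genes, 2 fell from day 0 to day 4, 6 to day 6 and 12 to day 8, and 0 rose, with medians of -0.43, -0.67 and -0.87. Of all genes, 9.91%, 13.6% and 14.1% were called lower. PCNA, the sliding clamp of DNA polymerase, had 13.16 and 13.19 at day 0 and 12.32 and 11.89 at day 8 (-1.07, SE 0.30, adjusted p = 0.0436). Their replicates differed by a median of 0.81 at day 4 and 0.79 at day 6, and 11 and 18 of 47 lay over 2-fold apart. The G1 list holds D-type cyclins, CDK inhibitors, the kinases CDK2, CDK4 and CDK6, and RB1, CCNG1 and CCNG2. In its 13 tested genes the gap was 0.12 at both days. From day 0 to day 8, 4 of these rose, RB1 (2.02, SE 0.19, adjusted p = 0.000505), CCND3 (1.40, SE 0.27, adjusted p = 0.0104), CCNG2 (0.79, SE 0.21, adjusted p = 0.0354) and CDKN1B (0.66, SE 0.17, adjusted p = 0.0305), and 1 fell, CDKN2B (by 1.33, SE 0.06, adjusted p = 2.95e-05). The background was again 10.4% of all genes higher and 14.1% lower. Averaged over all probe sets of a gene the differences were 1.09 for RB1 (adjusted p = 0.00176), 0.63 for CCND3 (adjusted p = 0.0176) and -0.73 for CDKN2B (adjusted p = 0.00152). CDKN2B, a dim gene, had levels of 7 and 6.95 at day 0 and between 5.58 and 5.7 on the sorted arrays. It exceeded the array median at day 0 only, and so entered the test through the day 0 arrays alone. Its small SE and its calls with arrays left out describe a drop from near the median to well below it. The size of that drop depended on the offset, at -2.33 with the smallest offset tried and -0.60 with the largest. RB1 encodes the retinoblastoma protein and CDKN1B the inhibitor p27, both restraints on entry into S phase, whereas CCND3 encodes a D-type cyclin. With any 1 array left out, RB1 (adjusted p up to 0.00955) and CDKN2B (adjusted p up to 0.000942) passed at day 8, while PCNA, CCND3, CCNG2 and CDKN1B lost their calls without either day 0 array (adjusted p up to 0.229). PCNA also lost its call without a filter (adjusted p = 0.0532) and with median centring (adjusted p = 0.0511), and CCNG2 with median centring (adjusted p = 0.0563) and with the mean of all probe sets (adjusted p = 0.0849). The genes of the S phase and G1 lists named here were picked after their values were seen.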

How the data were processed

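Samples were grouped and numbered by their titles; the source name of 3 arrays titled day 6 or day 8 says day 4, against every other label. The authors deposited 1 linear intensity for each probe set of each array, made with MAS5 per the submitters' processing notes; its version and scaling are not given in the sources used here. No scaling was added, and 41091 of 54675 probe sets carry 1 gene symbol in the platform annotation. Values were transformed as log2(intensity + 32), which understates folds of dim genes.

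Genes whose level exceeded the array's median on 2 or more of 8 arrays were tested with limma 3.58.1 in R 4.3.3 (1 fit with a term per group, eBayes with trend, 4 residual and 2.84 prior degrees of freedom), adjusted by Benjamini-Hochberg over all 13647 and called at 0.05, two-sided. The scripts were tested on simulated data. The members and lists were chosen with earlier results of these data known, so list counts are descriptions. Levels on each array were named for members past the threshold, the 3 with the largest rise and fall in day 4 and day 8 against day 0 and day 8 against day 4, the 3 widest replicate gaps of day 4 and day 6, and CDK1, CCNB1 and MKI67. Of the other mitosis genes and the MuvB, DREAM, E2F and NF-Y factors, members past the threshold were named, at most 8 of a list. Alternatives were the offset (1, 128), the filter (none, 75th percentile), quantile normalization, median centring, all probe sets, eBayes without trend, only the groups compared, a replicate block and each array left out.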

Additional observations from a re-analysis of the deposited data

Results flagged for a closer look

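CENPA was singled out because both day 4 arrays lay above both day 0 arrays while both day 8 arrays lay below them. Day 8 differed from day 4 by -0.81 on the log2 scale, which did not pass in limma (adjusted p = 0.724). Its probe set ends in _x_at.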

How the results depend on the processing

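Counts of members called for day 8 against day 0 were 3 under each offset, filter and normalization, with all probe sets and without the eBayes trend, and the 3 were BUB1B, NEK2 and BUB1 each time. With only the arrays of the groups compared the count was 37 (49.7% of all genes called). It ran from 0 to 14 over arrays left out in turn, being 0 without either array of day 0 or day 8. For day 6 against day 0 it was 1 with the filter at the 75th percentile or quantile normalization (BUB1B) and with the mean of all probe sets (BUB1), and 0 to 12 over arrays left out; for day 4 against day 0 it was 1 (BUB1) with the mean of all probe sets. Among the 4 days it was 1 with the mean of all probe sets. The share of all genes called among the 4 days was not worked out for the alternatives, so counts of that test stand without a background.

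With the replicate block, 1 member was called for day 4, 4 for day 6, 13 for day 8 (22.3%, 28.4% and 31.1% of all genes) and 4 among the 4 days. The replicate deviations correlated across genes at -0.03, 0.02 and 0.02 between day 0 and the later days, and at 0.60, 0.19 and 0.41 between the sorted days (members alone 0.61, 0.45 and 0.75). The day 0 arrays were nearly alike (r = 0.9972 across genes), so values near 0 cannot tell whether day 0 was paired with later arrays. No label named a shared culture, and the numbers were not taken to pair day 0 with later arrays. The sorted days deviated together, and the replicate block over 8 arrays called 0 members between them. On the 6 sorted arrays alone, with or without a replicate block, an alternative added after the data were seen, 0 members were called.

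Over arrays left out in turn, the median ran from -0.81 to 0.21 for day 4 and from -1.30 to 0.27 for day 6 against day 0, from -1.02 to 0.60 for day 6 against day 4, from -1.19 to 0.24 for day 8 against day 6 and from -1.25 to -0.19 for day 8 against day 4; for day 8 against day 0 it stayed below 0. With replicate 1 of day 4 and of day 6 left out together, also added afterwards, 28, 38 and 37 members were called for day 4, day 6 and day 8 against day 0 and 36 among the 4 days, and the medians were -0.81 and -1.30 for day 4 and day 6 against day 0, 0.24 for day 8 against day 6 and -0.19 for day 8 against day 4; CDC25C turned to -0.81 at day 4 (adjusted p = 0.0111) and CDK1 to -0.90 at day 6 (adjusted p = 0.0144). With replicate 2 of both left out, 9, 12 and 37 were called against day 0, 39 for day 8 against day 6, 35 for day 8 against day 4 and 41 among the 4 days, and the medians were 0.27 for day 6 against day 0 and -1.19 for day 8 against day 6; SPC25 turned to 1.08 (adjusted p = 0.0492) and CDC25C to 0.70 (adjusted p = 0.0174) at day 6. The cause of these turns was not tested. Outside the alternatives added afterwards, 3982 values of single genes kept their side of the threshold, 63 came to pass it, 149 no longer passed it and 0 turned while called. A value that was not called could change direction and still count among the 3982. With 2 arrays a group, the number of arrays limits every value, and no detection calls were used here.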
